A study of Drosophila melanogaster with 36 samples.

Results

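The expression of 10 genes of chitin synthesis, modification and binding was followed in wing discs of Drosophila melanogaster: kkv, Gasp, serp, verm, Cht5, Cht6, Cht7, Idgf2, Idgf4 and obst-A. They were taken as every probe set annotated to only 1 of these genes, which gave 12 probe sets among 18769 that are not controls and 10 genes of 11982 with such a probe set. Cht6 had 3 probe sets and each of the other 9 genes had 1. Of the 12 probe sets, 11 passed the filter on low signals and were tested among 9385, and the one left out was the dimmest of Cht6.

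The study compared lines of flies selected in opposite directions for wing shape. Lines H (high) and L (low) came from a wild Massachusetts (MA) population after 20 generations of selection and were then made isogenic. Hybrids of H and L formed 4 populations that were mixed for 34 generations, and each was selected again in both directions for 25 generations and inbred for 10, which gave the high lines A1, B1, C1 and D1 and the low lines A2, B2, C2 and D2. The remaining 2 of the 12 lines, one high and one low, were selected from another population, of California (CA). No transgene, mutation or treatment is named for any line, and all were reared at 20 °C on cornmeal agar. Discs were dissected from third-instar larvae at a median of 6.2 h before pupariation and collected in tubes of 100, and there were 3 arrays per line. Each line is a single line of its population and direction, so a value of 1 line cannot be told apart from chance fixation in that line.

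Chitin is a polymer of N-acetylglucosamine that stiffens insect cuticle and the lining of the tracheal tubes. The membrane enzyme chitin synthase, encoded by kkv, extrudes the polymer from the apical cell surface. Secreted proteins such as those of Gasp and obst-A bind it, deacetylases such as those of serp and verm remove acetyl groups, and chitinases cut it when matrix is remodelled or shed. In embryonic tracheae, kkv, serp and verm are known for setting the width and length of the tubes. The Idgf genes encode chitinase-like proteins that were described as growth factors for imaginal disc cells in culture. The wing disc makes its first cuticle around pupariation, and a branch of the trachea is attached to it.

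The values are MAS5 array signals on a linear scale, scaled so that every array has the same trimmed mean. All 36 arrays were closest to their own line (mean r of 0.976 to 0.986, against 0.956 to 0.969 with other lines). Differences are given as log2 of the high line minus log2 of the low line, so that 1 unit is a doubling of signal. A probe set was called where limma gave a Benjamini-Hochberg adjusted p below 0.05 over all 9385 probe sets. Whether the arrays of a line are separate cultures is not stated, so within a pair the p-values measure only the spread between these samples. The p-values for the CA difference against the MA mean rest on that same spread. They do not measure how pairs vary within a population, and CA has 1 pair. In every pair the high line carries the lower numbers in the sample titles, and an effect of that order and the effect of selection cannot be told apart. The same holds, for genes with 1 probe set, of a sequence difference under the probes and a difference in expression.

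Gasp, which encodes a secreted chitin-binding protein of the tracheal lining, was higher in the high line of all 6 pairs, in MA and in CA. Its signal was 25230 ± 3550 in the 5 MA high lines and 12000 in the 5 MA low lines, a rise of 1.07 ± 0.32 (SD over 5 pairs, limma adjusted p = 0.00151), or 2.1-fold. In the CA pair it rose by 0.94 ± 0.13 (SE, adjusted p = 1.17e-06), from 13450 ± 278 to 25770 ± 1560 (SD, n = 3 arrays).

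The arrays show this without overlap. Among the founders, the 3 arrays of H read 27049, 27372 and 26134 and those of L read 13684, 12584 and 14010. Line A1 read 27384, 26576 and 24567 against 12336, 11034 and 11340 in A2. Both pairs therefore separated by about the same step. Line B1 read 31553, 28266 and 23703 against 14437, 10454 and 9762 in B2, and line D1 read 32366, 22607 and 23907 against 13033, 9424 and 8979 in D2. These lines were the most spread among their 3 arrays, yet no array of a low line reached one of its high partner. In both lines of pairs A, B, D and CA array 1 was the highest, and in both lines of pair C array 2 was. The highest arrays thus carried the same number in these pairs, but not in H and L. Line C1 read 18677, 19759 and 18518 against 12874, 13549 and 12492 in C2, so C1 was the lowest of the high lines. The CA high line read 27027, 26267 and 24029 and the CA low line 13711, 13482 and 13157.

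Over all lines, the 18 arrays of high lines ran from 18518 through a median of 26201 to 32366, and the 18 of low lines from 8979 through 12729 to 14437. Only 17 of the 9385 tested probe sets (0.181%) had high and low arrays that did not overlap in this way. Gasp was called in each pair, with differences of 1.00 between H and L, 1.18 in pair A, 1.28 in B, 0.55 in C, 1.33 in D and 0.94 in CA, and the largest adjusted p was 0.00247, in pair C. Being called higher in all 6 pairs was the case for 26 probe sets (0.277%). The 6 differences were not equal (limma F test, adjusted p = 0.00794), although with each array centred on its median this call was lost. In the order of line means, the 6 high lines held the first 6 places. Of the 11 neighbouring pairs of lines in that order, 8 had overlapping arrays, and C1 stood apart from the line on either side of it. The CA difference was not shown to differ from the MA mean (-0.13 ± 0.14, adjusted p = 0.559).

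The deacetylase gene serp went the other way and was lower in the high line of all 6 pairs. Over the 5 MA pairs it fell by 0.80 on the log2 scale (SD 0.31 over 5 pairs, limma adjusted p = 0.0044), from 21380 in low lines to 12490 ± 2750 in high lines, which is 1.75-fold. In CA it fell by 0.54 (SE 0.12, adjusted p = 0.0011), from 17190 in the low to 11900 ± 1590 in the high line.

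For serp, H read 12877, 11287 and 9423 and L read 18074, 23397 and 23860. Line A1, the lowest of all lines, read 9719, 9712 and 8176, and its partner A2 read 23202, 19337 and 19606. The D lines resembled these, with 11272, 11823 and 10905 in D1 and 20544, 21553 and 22558 in D2. The steps in pairs B and C were smaller. Line B1 read 14234, 13948 and 18141 against 20002, 24693 and 23410 in B2, and C1 read 14824, 16370 and 14592 against 18240, 21704 and 20573 in C2. The CA high line read 10075, 12677 and 12962 and the CA low line 17178, 16605 and 17776. Within each pair no high array reached a low one, but over all lines 1 of 18 high arrays and 4 of 18 low arrays lay in the overlap of the 2 ranges, which were 8176 to 18141 and 16605 to 24693.

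The pair differences of serp were -0.96 between H and L, -1.17 in A, -0.56 in B, -0.40 in C, -0.93 in D and -0.54 in CA. All were called, as for 13 of 9385 probe sets (0.139%) called lower in 6 of 6 pairs. The call in pair C (adjusted p = 0.0192) was lost when any 1 of 4 arrays of C1 or C2 was left out (largest adjusted p = 0.097) and under median centring of the arrays (adjusted p = 0.101). As for Gasp, the 6 differences were unequal (limma F test, adjusted p = 0.00237). The difference between CA and the MA mean did not pass (0.27 ± 0.13, adjusted p = 0.146), except without CA high replicate 1 (adjusted p = 0.044). The overlap concerned single arrays, since the serp means of the 6 high lines were all below those of the 6 low lines, which held for 2.23% of the tested probe sets in one direction or the other, Gasp among them.

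The second deacetylase gene, verm, is the nearest tested gene to serp on chromosome arm 3L. Its mean was below that of the low line in all 6 pairs as well, a shared sign that 10.7% of tested probe sets had, but few of its differences passed. It fell by 0.92 in pair A (SE 0.15, limma adjusted p = 4.5e-05), where A1 averaged 13090 ± 2640 and A2 24560. Between H and L it fell by 0.47 (SE 0.15, adjusted p = 0.0251), a call lost without any 1 of 4 arrays (largest adjusted p = 0.195). The values in pairs B, C, D and CA were -0.11, -0.17, -0.38 and -0.37 and were not called. Over the 5 MA pairs the difference was -0.41 ± 0.32 (SD, adjusted p = 0.0591), and it passed without any 1 of 4 arrays (smallest adjusted p = 0.0403) or with median centring (-0.46, adjusted p = 0.05 after rounding). The arrays of high lines ranged from 11499 to 27508 and those of low lines from 18414 to 29995, so the 2 directions overlapped widely.

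**Figure D1:**
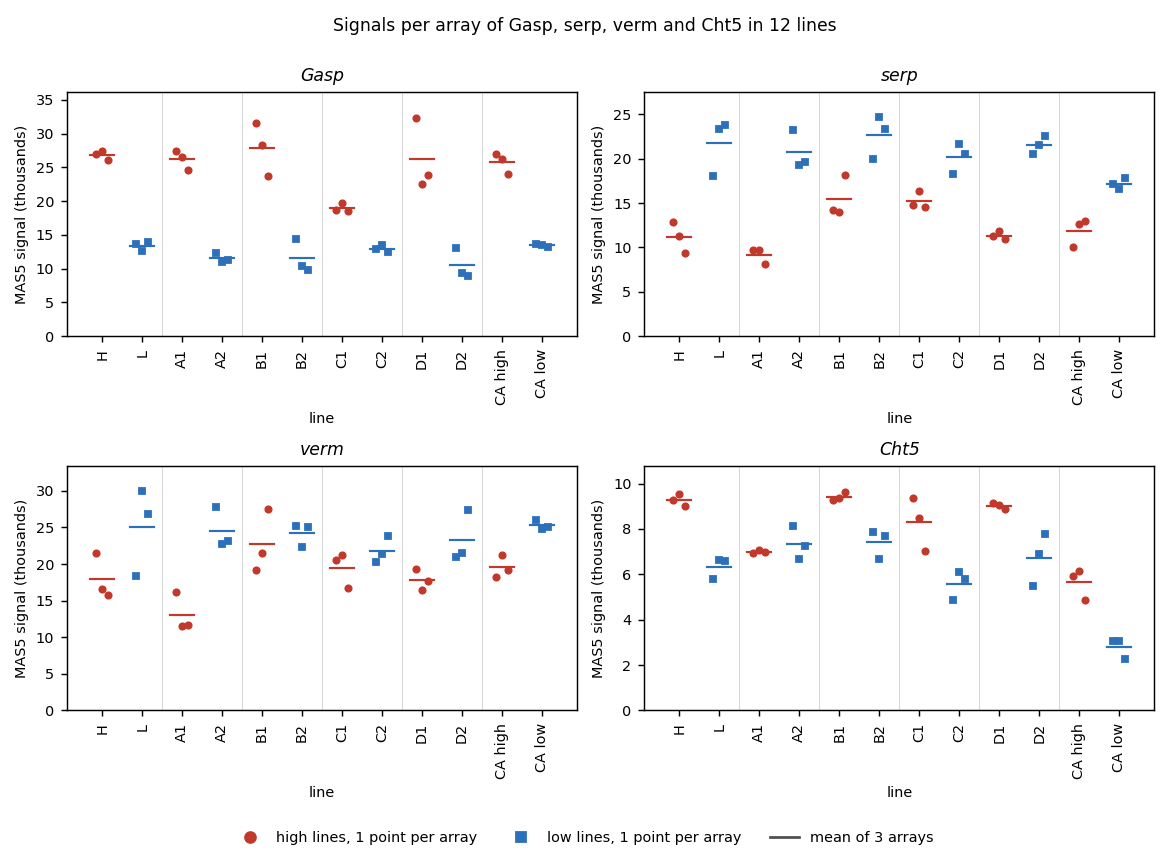
MAS5 signal divided by 1000 (vertical axes, from 0) of Gasp, serp, verm and Cht5 on each of 3 arrays in 12 lines (horizontal axes), with circles for high lines, squares for low lines and a bar at each line's mean. Every Gasp array of a high line (18518 and above) lies above every array of a low line (14437 and below), serp shows the reverse step with slight overlap, and Cht5 is lowest in the CA low line.

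Gasp and serp thus moved in opposite directions in each of the 6 pairs. Within a direction, Pearson r between their mean log2 signals was -0.45 over the 6 high lines and -0.56 over the 6 low lines. Between serp and verm, r was 0.87 over the 6 high lines and -0.29 over the 6 low lines. Over the deviations of the 36 arrays from their line means it was 0.68. These correlations describe arrays of lines that share ancestry, and no test was made of them.

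**Figure D2:**
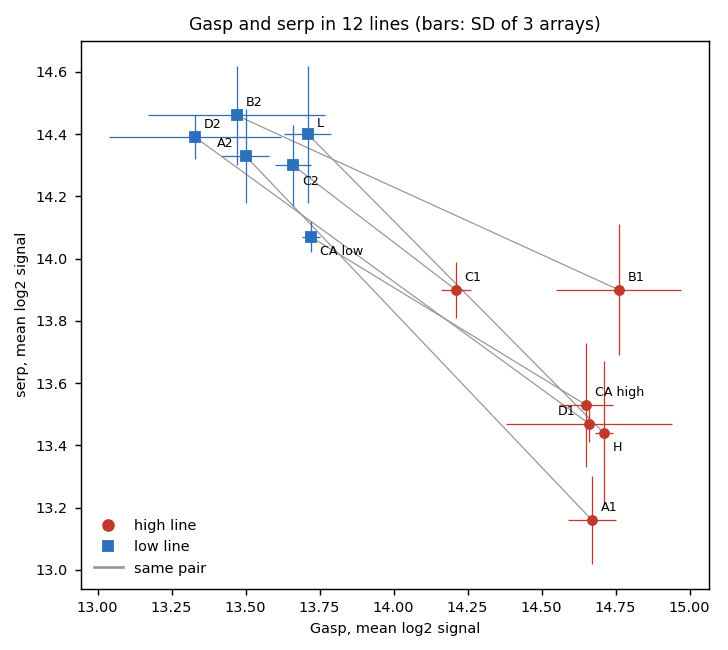
Mean log2 signal of serp (vertical axis) against that of Gasp (horizontal axis) in 12 lines, with the SD of 3 arrays as bars and grey lines joining the high line (circle) and low line (square) of a pair. Each grey line runs down to the right, from a Gasp level of 13.33 to 13.72 in the low lines to one of 14.21 to 14.76 in the high lines.

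Among the chitinase genes, Cht5, which encodes a secreted chitinase that acts when old cuticle is shed, was higher in the high line of 5 pairs. The CA pair had the largest step: the CA high line read 5923, 6147 and 4847 and the CA low line 3064, 3053 and 2262, a rise of 1.02 ± 0.12 (SE, limma adjusted p = 9.93e-08), or 2.03-fold. The CA low line stood below all others, and the next line up, C2, did not overlap with it. In MA, H read 9292, 9541 and 9008 against 5788, 6652 and 6574 in L (0.55, adjusted p = 0.00088). Line C1 read 9346, 8501 and 7048 against 4866, 6097 and 5809 in C2 (0.57, adjusted p = 0.00113). Arrays of the high and low line overlapped in pair A alone. Line D1 read 9163, 9042 and 8890 against 5466, 6909 and 7770 in D2 (0.44, adjusted p = 0.0127), and pair B gave 0.35 (adjusted p = 0.0523). Pair A was the exception at -0.07 (adjusted p = 0.784), with 6938, 7058 and 6963 in A1 and 8124, 6672 and 7252 in A2.

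Over the 5 MA pairs Cht5 rose by 0.37 ± 0.26 (SD, limma adjusted p = 0.0473), from 6683 to 8603 ± 1000. This call lies at the threshold and was lost without any 1 of 6 arrays, without the founder pair or pairs B, C or D, with no filter, no intensity trend and under both other scalings (adjusted p from 0.0501 to 0.163). Under median centring, the value between H and L was 0.32 and that of pair D stayed at 0.44, and neither was called (adjusted p = 0.133 and 0.104). The call in pair D was also lost without D2 replicate 1 (0.30, adjusted p = 0.136). The rise in CA exceeded the MA mean by 0.65 ± 0.13 (adjusted p = 0.000343).

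Cht6, a large family 18 chitinase gene on the X chromosome, gave unlike values from its 2 tested probe sets. The brighter one, with a signal from 1800 to 4684, was called in 0 of 6 pairs, with differences from -0.41 in pair B to 0.35 in pair C and -0.35 in CA. The unadjusted p of limma was below 0.05 in these 3 pairs (0.0104, 0.027 and 0.0282). The second, from 892 to 2100, fell by 0.84 in pair A (SE 0.15, adjusted p = 9.43e-05), where A2 averaged 2014 and A1 1157 ± 335. It also fell by 0.64 in CA (SE 0.15, adjusted p = 0.00184), from 1977 to 1273 ± 109. In the remaining pairs it gave 0.26, -0.20, 0.13 and 0.12. CA differed from the MA mean by -0.53 ± 0.16 (adjusted p = 0.0146), a call lost with median centring (adjusted p = 0.173) and without CA high replicate 1 or CA low replicate 1 (largest adjusted p = 0.063). The CA value lay within the range of the MA pairs, -0.84 to 0.26, so a departure of California from them was not shown. In pair A the brighter probe set gave -0.04, so that the 2 probe sets of the gene differed there, and which transcripts each one matches is not given in the sources used here. The third probe set, left out by the filter, had signals between 9 and 300.5 and pair values from -1.04 to 2.5, without detection calls to show that it was above background.

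Cht7, another family 18 chitinase gene, varied more between arrays of a line (pooled SD 0.28) than the tested probe sets above. It was called in CA alone, with 2788, 2780 and 3667 in the high line and 1901, 1872 and 1998 in the low line (0.67 ± 0.21, limma adjusted p = 0.028). That call was lost without any 1 of 4 CA arrays (largest adjusted p = 0.142). The MA pairs gave -0.32 to 0.37 and a mean of 0.13 ± 0.27 (SD, adjusted p = 0.502). The difference of CA from the MA mean was not called (0.54 ± 0.23, adjusted p = 0.0979), so the effect was not shown to be particular to California.

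The chitin synthase gene kkv differed among the 12 lines (limma F test, adjusted p = 1.06e-05), but over a narrow range. Its arrays ran from 14352 to 21548, and line means spanned 0.38 on the log2 scale. Differences in MA ran from -0.12 to 0.21 with a mean of 0.02 ± 0.13 (SD, limma adjusted p = 0.841). It was called in pair D (0.21 ± 0.07, adjusted p = 0.0362) with 18985, 19494 and 19734 in D1 and 16530, 16075 and 17594 in D2, a call lost without any 1 of 5 arrays and with no filter (adjusted p = 0.0672). The call in pair D was also lost with no intensity trend (limma adjusted p = 0.0511) and with median centring (adjusted p = 0.496). In CA kkv rose by 0.30 ± 0.07 (adjusted p = 0.00163), with 19357, 19825 and 19190 in the high line and 16290, 15898 and 15340 in the low line. With each array centred on its median, that difference was 0.37 and was not called (adjusted p = 0.0541). The CA difference exceeded the MA mean by 0.27 ± 0.07 (adjusted p = 0.00662).

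The chitin-binding gene obst-A, needed for an ordered larval cuticle, spanned 0.44 between its lowest and highest line means. It rose in pair D by 0.29 ± 0.07 (limma adjusted p = 0.00248) and fell in CA by 0.28 (SE 0.07, adjusted p = 0.00226). Line D1 read 43348, 38151 and 38642 and D2 33704, 31222 and 33111, while the CA high line read 29172, 29609 and 29760 and the CA low line 34152, 38760 and 34864. These opposite steps are small against those of Gasp and serp, and both lost their calls with each array centred on its median (adjusted p = 0.167 and 0.326). The same centring moved the value between H and L from -0.10 to -0.34 and made it a call (adjusted p = 0.0266). The MA mean was 0.01 ± 0.17 (SD, adjusted p = 0.948), and CA differed from it by -0.29 ± 0.07 (adjusted p = 0.003), a call lost with median centring as well (adjusted p = 0.421).

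Of the chitinase-like growth factor genes, Idgf4 was called in pair A only, where A1 read 18257, 18440 and 17978 and A2 14144, 14903 and 13219 (0.37 ± 0.12, limma adjusted p = 0.0384). Without any 1 of 5 arrays, with no filter, with no intensity trend or with median centring, this call was lost. Its MA mean of 0.22 ± 0.16 (SD) was not called (adjusted p = 0.0618), but was called without pair C (0.28, adjusted p = 0.0197) and without any 1 of 3 arrays (adjusted p from 0.0203 to 0.0487). The arrays of both CA lines, from 18352 to 21344, were reached by 3 of 30 arrays of the MA lines, and the CA difference was 0.05. The suffix of its probe set marks probes that can match several transcripts, so other Idgf genes may add to its signal. Idgf2, with signals from 229.6 to 688, was called in 0 of 6 pairs by limma, and its smallest unadjusted p was 0.108, in pair A (0.46 ± 0.28). Its line means did not differ either by the F test over 12 lines (adjusted p = 0.706). Its signal was close to the filter level of 259.72, and differences of up to 0.46 were not detectable at this spread.

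**Figure D3:**
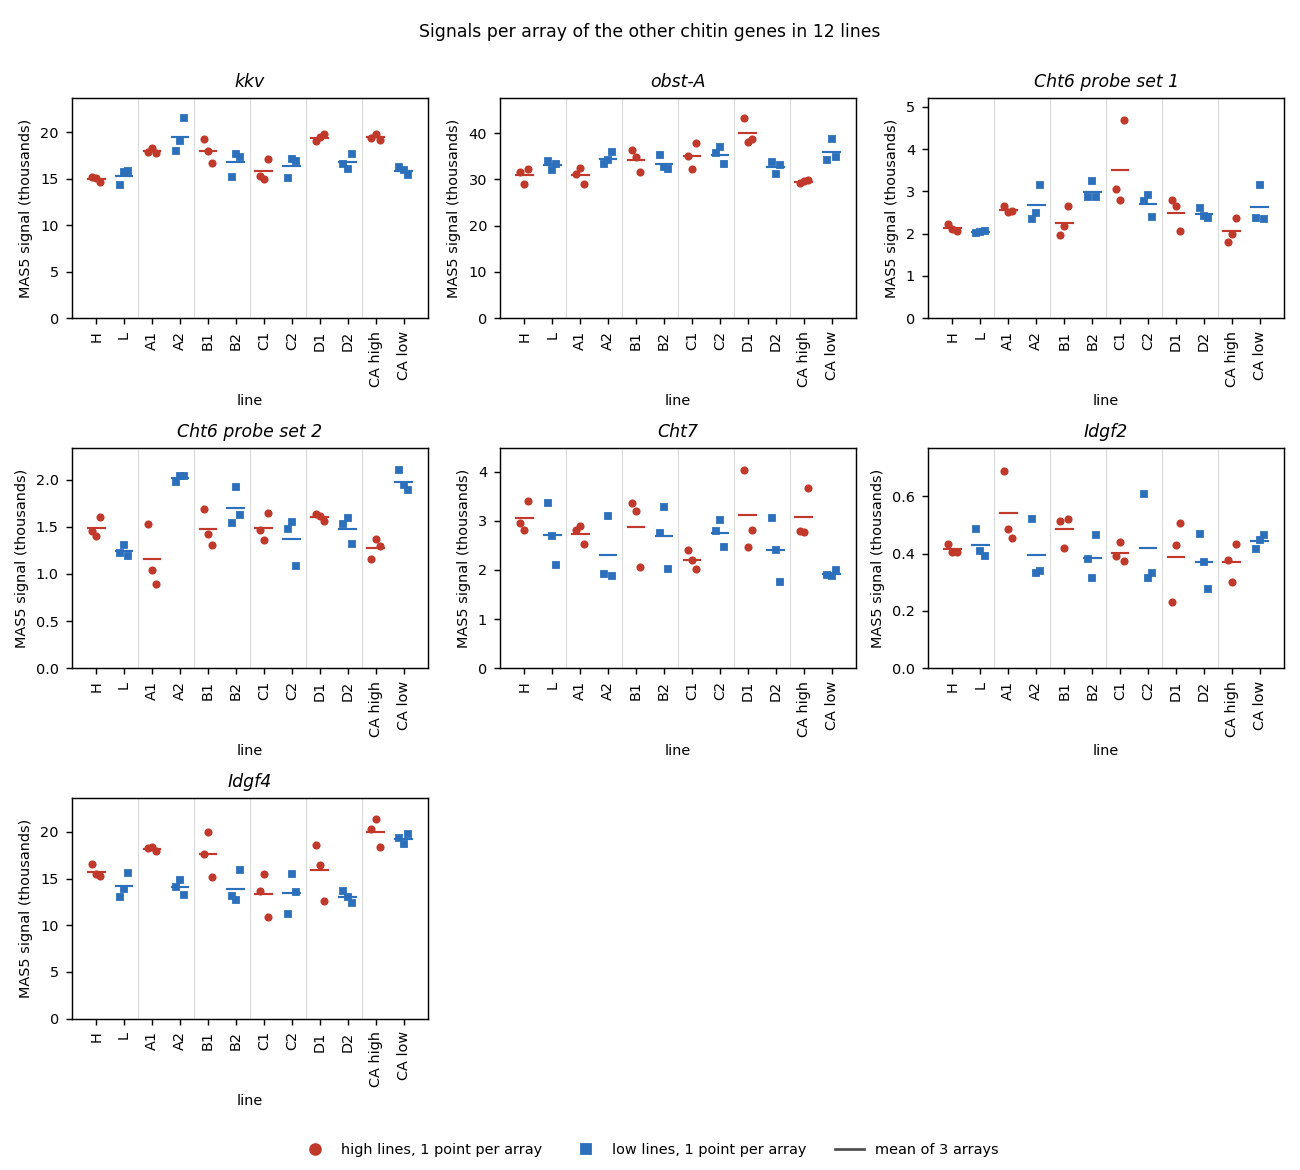
MAS5 signal divided by 1000 (vertical axes, from 0) of kkv, obst-A, Cht6 (2 probe sets), Cht7, Idgf2 and Idgf4 on each of 3 arrays in 12 lines (horizontal axes), with circles for high lines, squares for low lines and a bar at each line's mean. High and low arrays overlap for every gene, and Idgf4 is high in both CA lines.

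Counted over the 11 tested probe sets, 4 were called between H and L (22.4% of all tested probe sets), 5 in pair A (15.7%), 2 in B (12.7%), 3 in C (14.2%) and 5 in D (10.0%). In CA 7 were called (17.0% of all), 4 higher (7.97%) and 3 lower (9.05%). Over the 5 MA pairs 3 were called (9.69% of all), 2 higher (4.92%) and 1 lower (4.76%). The median difference of the 11 was 0.02 over the MA pairs and -0.28 in CA, beside 0.00 and -0.03 for all tested probe sets. These medians count Cht6 with 2 probe sets. With the brightest probe set of each of the 10 genes they were 0.08 and -0.11, so the CA median does not describe the genes as a set. Gasp and serp made up the calls common to all 6 pairs. The CA difference departed from the MA mean at 4 (kkv, Cht5, the second Cht6 probe set and obst-A), against 22.8% of all. Unequal differences among the 6 pairs were called at 8 (30.1% of all), and unequal line means at 9 (64.5% of all), with Cht7 and Idgf2 as the exceptions. The members were not matched in brightness to all tested probe sets. Mean signals of kkv, Gasp, serp, verm, Idgf4 and obst-A were at percentiles 94.7 to 98.2 of all that are not controls. The SE of a pair difference was 0.07 for kkv and 0.28 for the dimmer Idgf2, so the shares compare unlike precision.

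**Figure D4:**
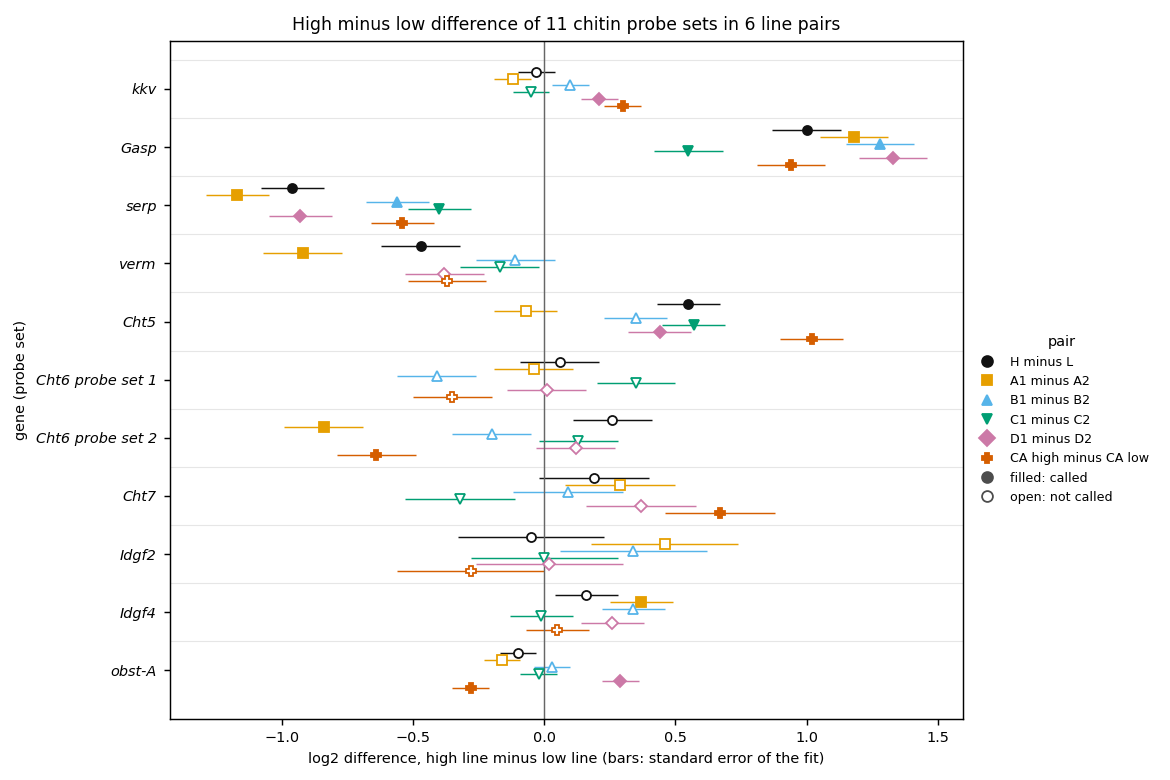
Log2 difference of high minus low line (horizontal axis) for 11 probe sets (vertical axis) in 6 line pairs, with the standard error of the fit as bars, filled symbols where the adjusted p was below 0.05 and open symbols elsewhere. The 6 Gasp values lie between 0.55 and 1.33 and the 6 serp values between -1.17 and -0.40, verm lies below 0 in all 6 pairs, and the other genes have values on both sides of 0.

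Genes that act before, beside or after these were taken from a list of 52 further genes, of which 47 had a probe set and 32 passed the filter. Over the 5 MA pairs 1 rose (4.92% of all tested probe sets) and 3 fell (4.76%), with a median of 0.01. The one that rose was the multidomain chitinase gene Cht10 (0.21, limma adjusted p = 0.0326). Those that fell were the hexosaminidase gene Hexo2, whose enzyme splits short chitin chains (-0.64, adjusted p = 0.0262), and the zona pellucida domain genes mey (-0.34, adjusted p = 0.0162) and neo (-0.64, adjusted p = 0.0117). These last genes encode proteins of the apical extracellular matrix. In CA 2 rose (7.97% of all) and 2 fell (9.05%), and for these 32 genes both counts are near or below the share among all probe sets. They were neo (1.30, adjusted p = 7.15e-06), the zona pellucida domain gene tyn (0.55, adjusted p = 0.00385), knk, which protects new chitin from chitinases (-0.23, adjusted p = 0.0398), and mey (-0.37, adjusted p = 0.0014). The direction of neo was thus opposite in the populations, at -0.37 to -1.16 in the 5 MA pairs and 1.30 in CA, and the difference between them was 1.94 ± 0.21 (adjusted p = 2.43e-08).

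By limma, 0 of the 8 tested precursor genes, which supply the activated sugar, were called over the MA pairs or in CA, and 2 and 1 had an unadjusted p below 0.05. Peritrophin-A was listed under 2 of the 6 groups and counts once among the 32. Among 6 genes of chitin synthesis and assembly, knk was the one called, in CA. Of the further deacetylase genes 0 of 2 were called (unadjusted, 0 in MA and 1 in CA), and of the further Idgf genes also 0 of 2 (unadjusted, 0 and 0). The 7 further chitinase and hexosaminidase genes held Cht10 and Hexo2, with calls in opposite directions. Of the 8 genes of chitin binding and apical matrix, mey and neo were called in both populations and tyn in CA.

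**Figure D5:**
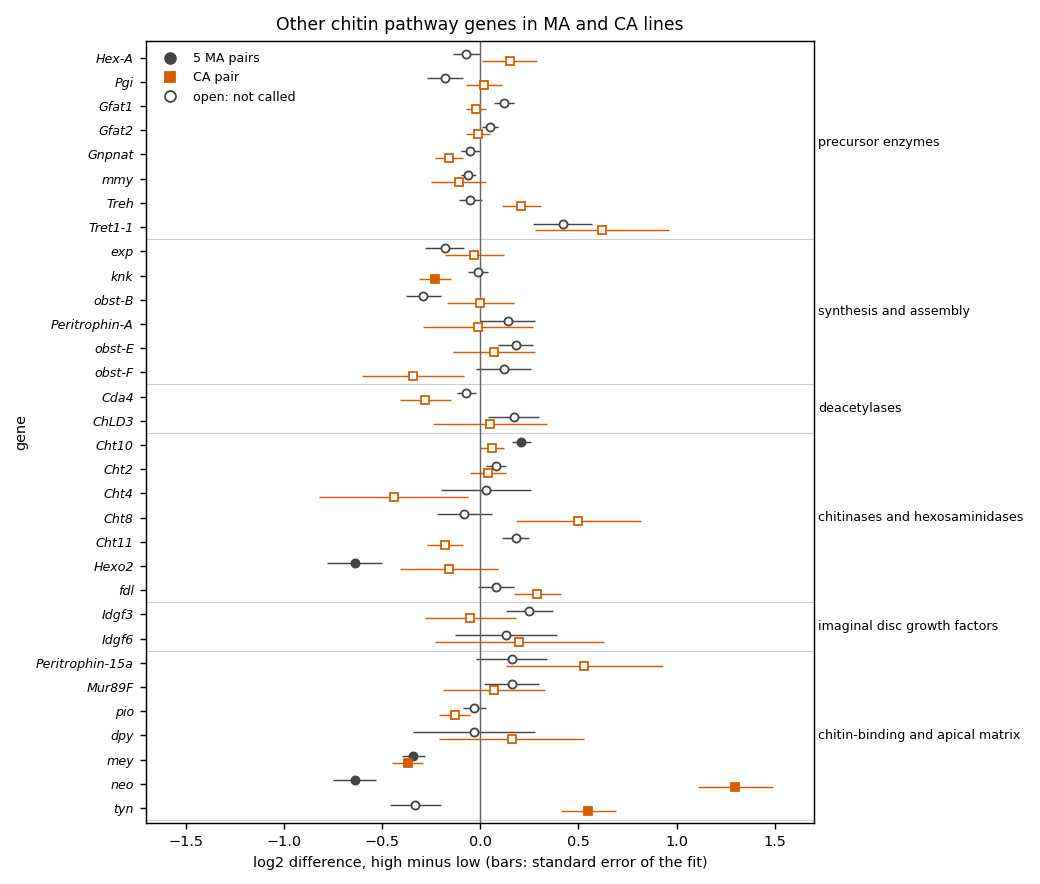
Log2 difference of high minus low lines (horizontal axis) for 32 further chitin pathway genes, each drawn once under 1 of 6 groups (vertical axis), over 5 MA pairs (circles) and in the CA pair (squares), with standard errors of the fit as bars and filled symbols where called. Most genes lie near 0, Hexo2, mey and neo are lower in MA high lines, and neo lies at 1.30 in CA.

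The discs expressed wing disc markers, with 12 of 12 measured genes past the filter, among them nub and ap (median signals 23900 and 20670). Over the MA pairs 1 of the 12 was called, pnr (-0.41, limma adjusted p = 0.0167), against 9.69% of all tested probe sets. In CA 2 were called, vg (-0.33, adjusted p = 0.0298) and ara (-0.31, adjusted p = 0.0134), against 17.0%. As the discs are bulk tissue, fewer cells of a type and less RNA per cell cannot be told apart. Gasp, serp, verm and kkv have known roles in tracheae, which need not be their only site. Genes listed for trachea (btl, uif, bnl, vvl and pio) were therefore set beside them. By limma 0 of 5 tested were called over the MA pairs or in CA, and 1 and 0 had an unadjusted p below 0.05. Their summed signal was 61170 to 71990 in the 6 high lines and 64780 to 71660 in the 6 low lines, most of it from pio. As pio and others of the 5 are not limited to trachea, neither the count nor the sum measures the amount of trachea. The FGF receptor gene btl, the more specific of the 5, had a median signal of 341.3 and differences of 0.36 in MA (limma adjusted p = 0.275) and 0.67 in CA (adjusted p = 0.522).

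Most blood cell markers were lower in high lines. Of 9 tested, 7 fell over the MA pairs (4.76% of all tested probe sets) and 3 in CA (9.05%), and 0 rose, with medians of -0.98 and -0.74. NimC1 went the other way in part, with a rise of 1.29 between H and L (limma adjusted p = 4.78e-05) and of 0.63 in pair A (adjusted p = 0.0472), and eater gave 0.26 in CA (adjusted p = 0.823). Their summed signal was 4539 to 8995 in high and 8781 to 15210 in low lines, lower in the high line of 6 of 6 pairs, and none of the genes was at 0. Of 13 tested ecdysone response genes, 2 fell over the MA pairs (Hr3, -1.66, and ImpL2, -0.77) and 0 rose, while in CA 2 rose, Hr3 among them (1.28), and 2 fell, against 9.69% of all probe sets called in MA and 17.0% in CA. The part of blood cells or of developmental timing in the differences of Gasp, serp and Cht5 was not tested. Fat body was represented by 1 gene past the filter, Lsp2, which gave 0.40 over the MA pairs (adjusted p = 0.58). It rose by 2.47 in pair C (adjusted p = 0.00166), the pair in which the Gasp difference was smallest, and gave -0.20 to -0.04 in the other MA pairs. Other markers differed in pair C as well. The neuron gene elav gave -1.12 there (limma adjusted p = 0.00837). Of the 9 blood cell genes, 7 were called lower in pair C and 0 higher, against 14.2% of all probe sets called in either direction. The part of Lsp2 or of these genes in the values of pair C was not tested.

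The genes whose line means were most like those of a member were found by Pearson r over 12 lines. For Gasp these were Bulli (r = 0.98), msl-3 (0.959) and GNBP3 (0.958), and for serp pst (0.925), Rab2 (0.923) and CG2493 (0.92). For verm they were Nlp (0.902), trio (0.899) and lncRNA:mimi (0.885), and for Cht5 CG9331 (0.937), Cpr78E (0.931) and CG31997 (0.928). Cpr78E is a cuticle protein gene. For Cht6 the most alike were Spec2, SPoCk and beat-IIIc (0.921 to 0.926), for Cht7 Cpr49Ah, Myd88 and CG6005 (0.846 to 0.9), and for kkv jim, Remo and APC4 (0.878 to 0.888). For obst-A they were pad, Trmt6 and CG5112 (0.769 to 0.925), for Idgf2 ND-18, CG3776 and CG9577 (0.83 to 0.842) and for Idgf4 CG4935, JMJD4 and pasi1 (0.902 to 0.908). With Spearman rho in place of r, all 3 names were shared for obst-A and 0 for serp, verm, Idgf2 and Idgf4. For Gasp and serp, whose high and low lines form separate clusters, these values include that split.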

How the data were processed

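Wing disc RNA of 12 lines was measured on 36 Affymetrix arrays, labelled with biotin from 5 µg of total RNA, per the labels' protocols. The authors deposited linear MAS5 intensity values per probe set, per the submitters' processing notes, with no version given in the sources used here. Every array had a trimmed mean of 2500.1 between the 2nd and 98th percentiles. After 183 controls were left out, signals were taken to log2 with no pseudocount. Probe sets with a mean at or above the median one (a signal of 259.72) were tested. Names came from the platform table, matched by gene identifier to the RefSeq table of Release 6 plus ISO1 MT (13544 of 13647 probe sets with 1 symbol found). No coordinates are given, since the build of the array's annotation is not given in the sources used here.

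In R 4.3.3, limma 3.58.1 fitted 1 mean per line with an intensity trend (24 residual and 6.34 prior degrees of freedom). The MA difference was fitted on the 10 line means with line pair as a block, where H and L are parents of the other lines and not independent of them. SE come from the fit and SD from arrays, lines or pairs as stated. The fit was tested on simulated data. Members and lists were chosen with earlier results of these data known. Named are all 10 members, the 3 genes most like each, and listed pathway genes that were called over the MA pairs or in CA. Alternatives were no filter, a pseudocount, median centring, quantile normalization, no trend, a replicate block, and leaving out each array or MA pair. Same-numbered arrays of a pair shared little of their deviation over all tested probe sets (r from -0.064 to 0.188, above 0.1 in 3 of 18 comparisons). The main fit did not pair them. This value over all probe sets does not speak for single genes. For Gasp, array 1 was the highest in both lines of pairs A, B, D and CA, and array 2 in both lines of pair C. The number of arrays limits precision.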

Additional observations from a re-analysis of the deposited data

Results flagged for a closer look

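Several chitin genes differed unequally between line pairs, as did many other genes (30.1% of all tested probe sets by the F test and 22.8% by the contrast of CA with MA). By that contrast, kkv differed by 0.27, Cht5 by 0.65, the second Cht6 probe set by -0.53 and obst-A by -0.29. It uses the spread between arrays, not between pairs, and at the second Cht6 probe set the CA value lay within the range of the MA pairs. The test of equal differences in the 6 pairs gave F = 5.84 for kkv, 5.24 for Gasp, 6.58 for serp, 3.6 for verm and 8.74 for Cht5. It gave 3.48 and 9.59 for the brighter and the second Cht6 probe sets and 8.89 for obst-A. The F call was lost for verm when 1 of 12 arrays was dropped (adjusted p up to 0.128) and for the brighter Cht6 probe set when 1 of 23 was (adjusted p up to 0.107). It was lost with median centring for kkv, Gasp and the brighter Cht6 probe set. With no filter and with no intensity trend it was lost for verm and the brighter Cht6 probe set, and with quantile normalization for the latter. In 36 groups of 5 MA values searched for a line far from the other 4, which chance alone finds in about 1 of 20 groups, 2 were found. Line C1 had a Gasp level of 14.21 (log2) against 14.66 to 14.76 in the other MA high lines, and A1 a level of 10.14 at the second Cht6 probe set.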

How the results depend on the processing

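Of 33 called differences, 20 kept call and sign in every alternative, 0 changed sign, and 25 kept their call whichever array was left out. The call was lost for 11 with each array centred on its median, 3 with no filter, 3 with no intensity trend, 1 after quantile normalization and 0 with the pseudocount of 29.4. Median centring moved the median of all differences by more than 0.1 between H and L, from 0.036 to -0.201, and between CA and MA, from -0.036 to 0.086. On that scale Gasp was 0.76 and serp -1.20 between H and L, both still called. It left 2 members called in pair D, 2 between CA and the MA mean and 5 by the F test over pairs. The cause was not tested. Without 1 array, 3 to 4 were called between H and L, 4 to 5 in pair A, 2 to 5 in B (5 without C1 replicate 3, 4 without B1 replicate 3), 2 to 4 in C, 3 to 5 in D (3 without D2 replicate 1), 6 to 7 in CA, 2 to 4 over MA pairs, 3 to 4 between CA and MA, and 6 to 8 and 9 to 10 by the F tests. Uncalled MA means near 0 changed sign: kkv to -0.02 with centring and -0.02 without pair D, obst-A to -0.04 and -0.06, the brighter Cht6 probe set to 0.00 and 0.10 without pairs A and B and -0.05 to 0.02 without 1 array, obst-A from 0.00 to 0.02 likewise, and the second Cht6 probe set to 0.08 without pair A. With the replicate block, 4, 5, 2, 3, 5 and 7 members were called in the 6 pairs and 10 by the F test over lines, and none of 30 refitted differences changed its call.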

Other observations

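Among the 5 tested genes on either side of each member along its chromosome, genes other than members were called in both populations beside Gasp, serp, verm, Cht5 and Cht7, where 9.69% of all tested probe sets were called over the MA pairs and 17.0% in CA. Next to Gasp, the odorant-binding protein gene Obp83g rose by 0.45 over the MA pairs (limma adjusted p = 0.0293) and by 0.76 in CA (adjusted p = 7.44e-05), while the other 9 neighbours of Gasp were not called in either. Near serp and verm, Oat, which encodes ornithine aminotransferase, fell by 0.62 in MA (adjusted p = 0.0189) and by 1.09 in CA (adjusted p = 0.00439). The receptor gene Ir76a gave 3.93 in MA (adjusted p = 0.000737) and -5.0 in CA (adjusted p = 2.51e-09). Next to Cht5, CG9312 rose by 0.54 in MA (adjusted p = 0.00182) and fell by 0.59 in CA (adjusted p = 0.000415). Near Cht7, CG32486 rose by 0.27 in MA (adjusted p = 0.042) and fell by 0.31 in CA (adjusted p = 0.00723). The 10 neighbours of kkv and the 10 of obst-A were called in neither comparison, at 0 of 10 each by limma (unadjusted p below 0.05 for 3 and 0 beside kkv in MA and CA, and for 1 and 1 beside obst-A), to be read against the shares above. These neighbours were examined after the members' values were known. Sequence differences under the probes cannot be told apart from changed expression, for the neighbours, Ir76a among them, as for the single probe sets of Gasp and serp.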
